A study of Mus musculus with 2 samples.

Results

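Hemidesmosomes are the junctions that fix basal keratinocytes (KCs) to the basement membrane. Their transmembrane core is the integrin encoded by Itga6 and Itgb4, joined by collagen XVII (Col17a1) and the tetraspanin Cd151, and the plakins encoded by Plec and Dst tie this core to the keratin filaments inside the cell. Outside the cell the integrin binds laminin-332, whose chains include Lama3 and Lamb3, and anchoring fibrils of collagen VII (Col7a1) run from there into the dermis. Inherited loss of these proteins is known to cause skin blistering. The 9 genes Itga6, Itgb4, Col17a1, Col7a1, Dst, Plec, Cd151, Lama3 and Lamb3 were taken by symbol from the 27998 genes listed in the files, and all 9 passed the filter on low counts.

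Single-cell RNA sequencing was performed on the epidermis of 2 male Chrm3 KO mice (C57BL/6J) at postnatal day 0, with 1 library per mouse. Both mice carry the same genotype, which lacks the M3 muscarinic acetylcholine receptor, and wild-type libraries were not analysed here, so the comparisons are between cell classes within KO skin and say nothing about genotype. Chrm3 itself gave 13 UMIs over 7607 cells of KO mouse 1 and 19 UMIs over 11881 cells of KO mouse 2. A UMI (unique molecular identifier) marks 1 captured RNA molecule, and without wild-type cells this low count does not check the genotype. The basal keratin Krt14 had at least 1 UMI in 96.2% and 98.7% of cells in the 2 mice. The libraries held 109756784 and 166441732 UMIs over 10816 and 15867 barcodes, and 127 barcode sequences occurred in both. Kept cells had a median of 10480 and 10577 UMIs.

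Cells were clustered without the 9 genes and their relatives, and clusters were named from marker lists. The interfollicular epidermis (IFE), the skin surface between hair follicles, gave 2131 and 3790 resting basal cells in KO mouse 1 and KO mouse 2, 264 and 554 dividing basal cells, 364 and 555 transitional cells, 136 and 149 differentiated cells, and 47 and 63 granular cells. Resting here means outside the clusters led by mitotic genes, and 1 of the 4 resting basal clusters was enriched for S-phase genes. Except for the cluster led by H19 and Igf2, each took its name from 1 basal marker among its 10 leading genes. The class depended on the clustering. It held 1405 and 2463 cells at the finer resolution of 1.2, where a cluster of 1236 cells led by Pltp and Kif26a was left unnamed. In a second clustering of the IFE cells alone it held 391 and 648 cells. Transitional cells held both the basal keratin Krt14 (10615 and 12485 CPM, UMIs of the gene in 1000000 UMIs of the class) and the suprabasal keratin Krt10 (9872 and 8365 CPM). The hair follicle (HF) class had 989 and 1512 cells, the dividing HF class 895 and 1204, the upper follicle 360 and 358, and the inner root sheath (IRS) and hair shaft 348 and 557. The granular class held a mixed set of genes: the HF gene Lhx2 at 242 and 163 CPM and Krt14 at 4386 and 5050 CPM, against 23.9 and 31.9 CPM of Lhx2 in differentiated cells. Of its 47 and 63 cells, 0 were marked as doublets in either mouse.

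RefSeq promoters (GRCm38.p6) were matched for 5 of the 9 genes: Col17a1, Col7a1, Lamb3, Dst and Cd151. The 250 bases before the start are shown for 3 of these genes, the membrane collagen, the anchoring fibril collagen and the laminin chain, whose levels differed most between classes among the 5. Capitals mark matches, on either strand, to AP-1 (TGANTCA), AP-2 (GCCNNNGGC), SP and KLF (GGGCGG), TEAD (GGAATG) or the TATA letters (TATAAA), and no match overlaps another in the printed sequences.
Col17a1, chr19:47692043-47692292, minus strand: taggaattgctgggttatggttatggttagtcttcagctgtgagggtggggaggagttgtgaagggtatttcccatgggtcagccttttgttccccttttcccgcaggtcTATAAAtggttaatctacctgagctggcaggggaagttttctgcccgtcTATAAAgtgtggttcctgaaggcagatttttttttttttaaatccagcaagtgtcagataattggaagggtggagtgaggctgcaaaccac
Col7a1, chr9:108953336-108953585, plus strand: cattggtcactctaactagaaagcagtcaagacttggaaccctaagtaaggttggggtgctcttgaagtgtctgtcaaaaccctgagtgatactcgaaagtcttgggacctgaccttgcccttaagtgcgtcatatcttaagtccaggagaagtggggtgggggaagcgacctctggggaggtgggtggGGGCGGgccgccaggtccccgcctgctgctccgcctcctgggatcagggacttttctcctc
Lamb3, first of 2 starts, chr1:193301744-193301993, plus strand: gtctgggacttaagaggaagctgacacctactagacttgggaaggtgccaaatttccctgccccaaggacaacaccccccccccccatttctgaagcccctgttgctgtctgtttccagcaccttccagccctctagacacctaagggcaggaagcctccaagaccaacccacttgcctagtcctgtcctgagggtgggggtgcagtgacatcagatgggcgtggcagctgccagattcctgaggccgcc
Over 32851 promoters of this length, 12.4% held the TATA letters, 32.7% the SP and KLF letters, 6.75% AP-1, 13.7% AP-2 and 12.6% TEAD. Col17a1 held the TATA letters at 2 places, Col7a1 the SP and KLF letters at 1, and the first Lamb3 window none of the 5, while the second Lamb3 window held the TEAD letters at 1 place. The first Dst window held the SP and KLF letters at 4 places, and the first Cd151 window held AP-2 and SP and KLF letters, which overlapped there. A match is only a description of the letters.

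All 9 genes had lower levels in differentiated than in resting basal IFE cells, in both mice (edgeR quasi-likelihood test, Benjamini-Hochberg adjusted p at most 0.00251). Over all 12794 genes tested, 26.8% were called lower in this comparison. Such shares over all genes are given for the main fit only. The median log2 fold change of the 9 was -3.14, against 0.01 over all genes, and the genes ranged from -4.48 (Col17a1) to -0.55 (Plec). All 9 were already lower in transitional cells, with a median of -0.98 and a background of 17.7% of genes called lower. From transitional to differentiated cells 8 of the 9 fell further, with 13.2% of all genes called lower, and Plec was not called. Log2 fold changes come from the fit after TMM scaling unless another setting is named, whereas CPM are unscaled unless stated. Ratios of the printed CPM therefore differ from the fitted changes. The sums compared come from 2 mice. The spread behind the p-values was estimated in 1 fit over 20 sums of 10 classes, with 10 residual degrees of freedom. It is therefore not the spread between the mice in the classes compared. The same 2 mice enter every class as if independent, and no p-value speaks for mice beyond these 2.

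**Figure D1:**
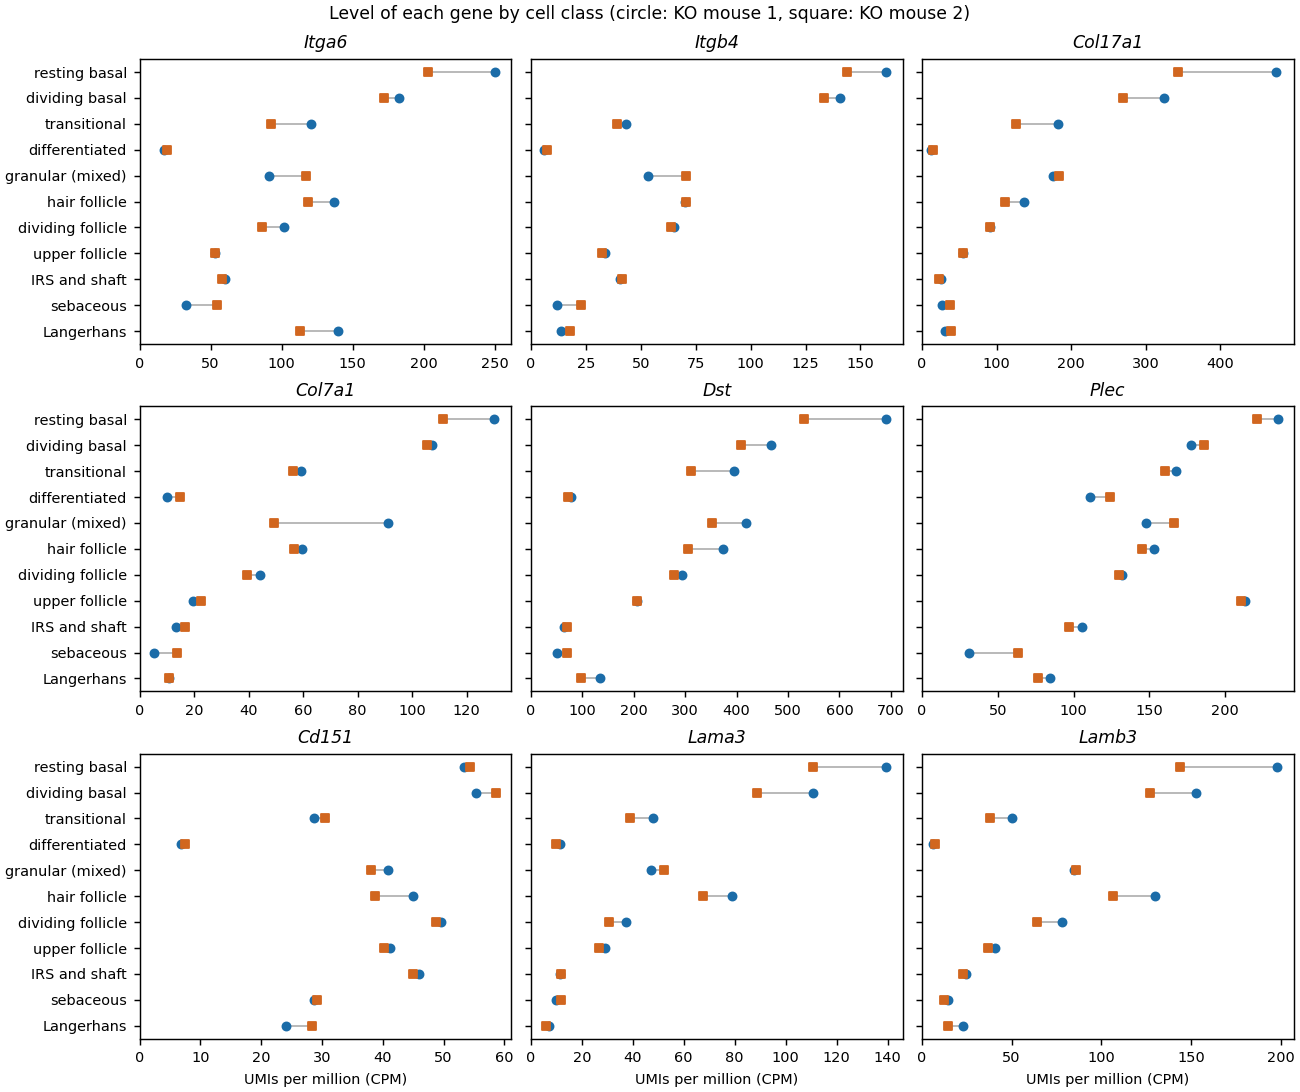
Level of each of the 9 genes in CPM (x axes, linear from 0) in each cell class, with 1 circle for KO mouse 1 and 1 square for KO mouse 2. Resting basal cells are highest in 8 panels, Plec stays at 111 and 124 CPM in differentiated cells, and Cd151 spans a narrow range among follicle classes.

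The integrin chains Itga6 (chromosome 2, 71745616 to 71858416, plus strand, mm10) and Itgb4 (chromosome 11, 115974709 to 116008412, plus strand) form the laminin receptor of the hemidesmosome. Itga6 was at 250 CPM in KO mouse 1 and 203 CPM in KO mouse 2 in resting basal cells, at 120 and 92.2 CPM in transitional cells, and at 17.0 and 19.4 CPM in differentiated cells. The 3 classes did not overlap, and Itga6 fell by 3.22 ± 0.19 (SE, log2) from resting basal to differentiated cells. Itgb4 was at 161 and 144 CPM in resting basal, 43.2 and 39.1 CPM in transitional and 6.10 and 7.46 CPM in differentiated cells. Its change into transitional cells (log2 fold change -1.78 ± 0.12, adjusted p = 4.09e-09) stood beside a smaller one of Itga6 (-0.98 ± 0.15, adjusted p = 4.10e-05), and the difference between the genes was not tested. Itga6 was also present outside the keratinocyte lineage, at 140 and 113 CPM in Langerhans cells, where Itgb4 was at 13.9 and 17.7 CPM.

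Collagen XVII, the product of Col17a1 (chromosome 19, 47646344 to 47692094, minus strand), spans the basal membrane and binds the integrin and the plakins. Its fitted fold change was the largest of the 9, close to that of Lamb3. It rests on a low level in differentiated cells, of which background may be a part. Its level was 475 and 343 CPM in resting basal cells, 183 and 126 CPM in transitional cells and 12.2 and 15.4 CPM in differentiated cells, a log2 fold change of -4.48 ± 0.22 (adjusted p = 6.51e-12) from resting basal to differentiated cells. The differentiated level lay near that of the melanocyte cluster led by Pmel (341 and 555 cells), a cell type without hemidesmosomes, where Col17a1 was at 16.8 and 10.5 CPM and Krt14 at 267 and 340 CPM. Itgb4 was at 9.73 and 8.59 CPM in these melanocytes. In CPM the differentiated levels of both genes thus lay near those of this melanocyte cluster. Another melanocyte cluster of 269 cells, led by Dct, held Krt14 at 2563 CPM. The mean of Col17a1 over the 2 mice was 42.1 CPM in both melanocyte clusters together, 34.9 CPM in Langerhans cells and 54.9 CPM in T cells, against 13.8 CPM in differentiated cells. The differentiated cluster had a median of 25014 UMIs and the Pmel-led melanocyte cluster 8266, so similar CPM do not mean similar UMIs per cell. Whether the differentiated level is background was not tested.

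Cd151, a tetraspanin that associates with laminin-binding integrins (chromosome 7, 141467392 to 141471473, plus strand), had 53.3 and 54.3 CPM in resting basal cells, 28.7 and 30.6 CPM in transitional cells and 6.86 and 7.46 CPM in differentiated cells. The mice lay closer together than for most of the other genes, and the log2 fold change from resting basal to differentiated cells was -2.50 ± 0.13 (adjusted p = 1.11e-11). Unlike the genes above, Cd151 was highest outside the basal IFE. The unnamed cluster led by Tagln and Foxe1 had 88.9 and 70.1 CPM and the 20 and 19 Merkel cells 65.0 and 89.0 CPM. The melanocytes of both clusters together had 71.5 and 74.2 CPM, and these ranges overlapped.

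Of the plakins, Dst (chromosome 1, 33908225 to 34308661, plus strand), whose epithelial form links the integrin to keratin, was at 691 and 531 CPM in resting basal, 395 and 312 CPM in transitional and 77.2 and 71.9 CPM in differentiated cells (log2 fold change -2.63 ± 0.15, adjusted p = 7.44e-11, resting basal to differentiated). Plec (chromosome 15, 76170974 to 76232574, minus strand), which encodes plectin, a linker of keratin filaments found at hemidesmosomes and elsewhere in the cell, was at 235 and 221 CPM in resting basal, 168 and 160 CPM in transitional and 111 and 124 CPM in differentiated cells. It had the smallest fitted change of the 9 genes, with a log2 fold change of -0.55 ± 0.14 (adjusted p = 0.00251) into differentiated and -0.36 ± 0.14 (adjusted p = 0.0457) into transitional cells. After the TMM scaling used in the fit, Plec was at 237 and 225 CPM in resting basal and 152 and 164 CPM in differentiated cells. Its step from transitional to differentiated cells was -0.19 ± 0.14 (adjusted p = 0.338), which was called lower without TMM scaling (-0.48), at the finer clustering (-0.31) and without cells above 5% mitochondrial UMIs (-0.50). In that last setting the transitional calls of Plec (adjusted p = 0.176) and Cd151 (adjusted p = 0.501) were lost. The transitional call of Plec was also lost in the fits with the Shh-led cluster alone as HF (adjusted p = 0.0666) and with the unnamed dividing cluster counted as dividing basal (adjusted p = 0.0726). The annotation lists 13 ends of coding transcripts for Dst and 8 for Plec, and the deposited counts, summed per gene, do not separate isoforms.

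The laminin chains Lama3 and Lamb3 (Lamb3 on chromosome 1, 193207699 to 193343878, plus strand) fell with the integrin. Lamb3 was at 198 and 144 CPM in resting basal, 49.98 and 38.1 CPM in transitional and 6.10 and 7.46 CPM in differentiated cells, with a log2 fold change of -4.24 ± 0.22 (adjusted p = 1.41e-11) between the first and the last. Lama3 went from 139 and 111 CPM through 47.9 and 38.9 CPM to 11.4 and 9.94 CPM (-3.14 ± 0.18, adjusted p = 4.46e-11). Lamb3 and Lama3 were at 3.69 and 4.97 CPM and 3.35 and 5.16 CPM in the Pmel-led melanocyte cluster. Col7a1 (chromosome 9, 108953586 to 108984875, plus strand), the anchoring fibril collagen, was at 130 and 111 CPM in resting basal, 59.4 and 56.1 CPM in transitional and 9.90 and 14.7 CPM in differentiated cells (-2.88 ± 0.20, adjusted p = 9.14e-10).

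CPM are shares of the captured UMIs, and differentiated cells gave more UMIs. The mean was 28952 and 29694 UMIs per cell, against 10052 and 10138 in resting basal cells. Whether differentiated cells hold more RNA was not measured. Counted per cell, 8 of the 9 genes still had fewer UMIs in differentiated than in resting basal cells in both mice. The share of all genes with fewer UMIs per cell was not computed. Col17a1 went from 4.77 and 3.48 UMIs per cell to 0.353 and 0.456, and Lamb3 from 1.99 and 1.46 to 0.176 and 0.221. Plec went the other way, from 2.36 and 2.24 UMIs per cell in resting basal cells through 2.65 and 2.47 in transitional cells to 3.21 and 3.68 in differentiated cells. For Plec the share of UMIs and the number of captured molecules per cell thus ran in opposite directions.

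**Figure D2:**
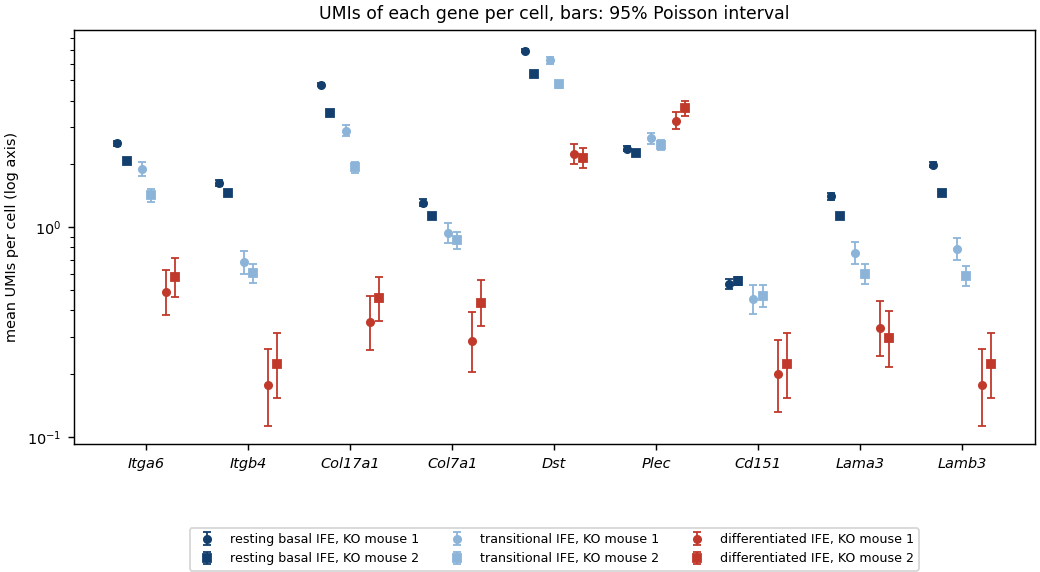
Mean UMIs per cell (log y axis) of each gene in resting basal, transitional and differentiated IFE cells, with circles for KO mouse 1, squares for KO mouse 2 and bars for the exact 95% Poisson interval, which covers counting error only. Plec is the gene whose differentiated points lie above its resting basal points in both mice, at 3.21 and 3.68 against 2.36 and 2.24.

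To compare detection at equal depth, each cell was thinned to 3000 UMIs. A resting basal cell then had on average 4.16 and 3.70 of the 9 genes with a UMI in the 2 mice, a transitional cell 2.27 and 2.01, and a differentiated cell 0.556 and 0.649. No member was detected in 60.0% and 52.0% of differentiated cells, against 0.518% and 1.05% of resting basal cells. Col17a1 was found in 69.7% (exact binomial 95% interval 67.7 to 71.6) and 61.7% (60.1 to 63.3) of resting basal cells and in 2.22% (0.461 to 6.36) and 4.05% (1.502 to 8.61) of differentiated cells. Langerhans cells, which should lack it, had 4.86% and 6.22%, and 13 of 145 and 21 of 193 of them were marked as doublets. Thinning takes a larger part of the UMIs from deeper cells, so these shares do not show equal background. Whether the differentiated share is background was not tested. Before thinning the Col17a1 shares were 94.8% and 90.8% in resting basal, 15.4% and 20.1% in differentiated and 11.7% and 13.0% in Langerhans cells, whose median UMIs were 9354 and 9544, 24983 and 25050, and 9639 and 9802. Plec was still found in 27.4% and 30.4% of differentiated cells after thinning.

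The course of the loss was followed in the 8053 IFE cells, granular cells included, and is given only with them. The axis was the suprabasal share of keratin UMIs, that is Krt1 and Krt10 over Krt1, Krt10, Krt5 and Krt14. It is a range and not a cell type, and 1472 of these cells lay within 0.02 of an edge between ranges. Itgb4, Col17a1 and Lamb3 were under 50% of their level in the lowest range (share below 0.1) by the range 0.3 to 0.5 in both mice. Itgb4 stood there at 37.0% and 42.1%, Col17a1 at 40.8% and 47.2%, and Lamb3 at 30.8% and 41.5%. Itga6 passed 50% one range later, at 47.4% and 35.0% in the range 0.5 to 0.7. Col7a1, Dst, Cd151 and Lama3 passed 50% in different ranges in the 2 mice. Plec was at 48.1% and 56.7% in the highest range (0.9 to 1), where Col17a1 was at 3.75% and 3.24%. The middle ranges were thin, with 41 and 87 cells at 0.5 to 0.7. KO mouse 2 had more cells at 0.1 to 0.3 (1480 against 380) and more Krt10 in resting basal cells (901 against 560 CPM), and the part of this in the order of loss was not tested.

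**Figure D3:**
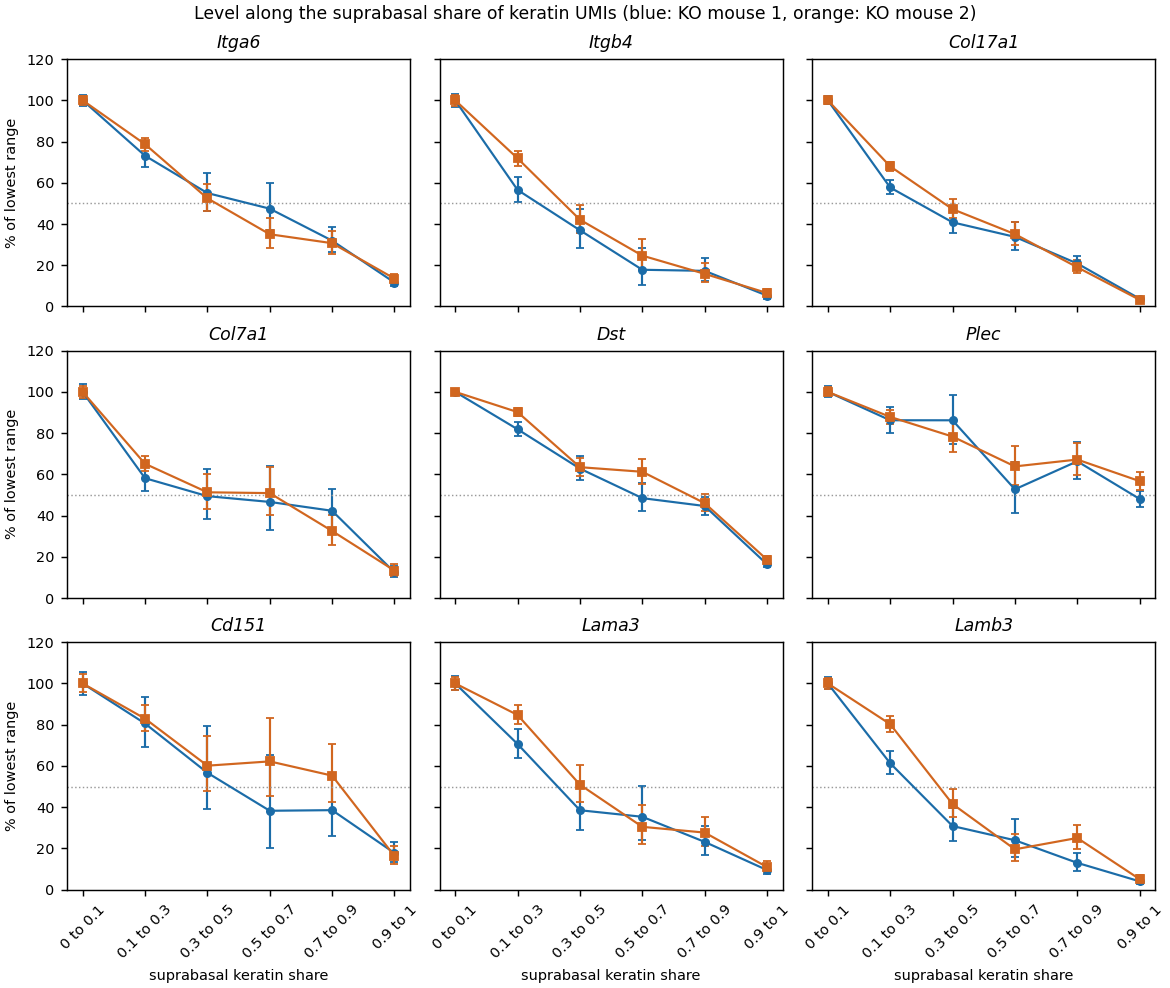
Level of each gene as a percentage of its level in the lowest range (y axes) over 6 ranges of the suprabasal keratin share (x axes), with blue circles for KO mouse 1, orange squares for KO mouse 2 and bars for the exact 95% Poisson interval of the gene's UMIs. Itgb4, Col17a1 and Lamb3 are under the dotted 50% line by the range 0.3 to 0.5 in both mice, while Plec ends at 48.1% and 56.7%.

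In dividing basal cells 5 of the 9 genes were called lower than in resting basal cells (Itga6, Col17a1, Dst, Plec and Lama3), with 8.29% of all genes called lower. Their log2 fold changes lay between -0.58 (Dst) and -0.42 (Plec), and Cd151 was at -0.01 ± 0.09 (adjusted p = 0.999), a sign that turned under 7 alternatives. With the mouse as a block 8 of the 9 were called lower, Itgb4, Col7a1 and Lamb3 added, whereas without cells above 5% mitochondrial UMIs 0 were called with edgeR (2 at an unadjusted p under 0.05), and with DESeq2 on all kept cells 3 were called. Library sizes without TMM scaling left 1 call. Per cell all 9 genes had more UMIs in dividing than in resting basal cells in both mice, for example Itga6 with 3.13 and 2.94 against 2.51 and 2.06. The lower share and the higher number per cell stand beside a mean of 17098 and 17077 UMIs per dividing cell, against 10052 and 10138 per resting basal cell. The share of all genes with more UMIs per dividing cell was not computed. The count per cell therefore cannot be read as a trait of the 9 genes.

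Granular cells did not continue the fall. Of the 9 genes 8 were called higher than in differentiated cells, with 13.6% of all genes called higher, and Plec was not called (-0.15 ± 0.19, adjusted p = 0.584, with a positive sign under 5 alternatives). Col17a1 was at 176 and 183 CPM. Granular cells had a median of 5134 and 9131 UMIs and held Lhx2 and Krt14 as given above. Without the granular cells that had an Lhx2 UMI, 29 and 41 cells remained and 8 of the 9 were again called higher. Col17a1 then had a log2 fold change of 3.74, and the highest of the 9 in the main fit was 3.11. The median over all genes shifted by -0.13 in this setting. Resting basal clusters held Lhx2 at only 7.86 to 68.7 CPM, so an Lhx2 UMI cannot mark mixing with basal cells. This setting therefore cannot show whether basal cells are mixed in. Whether mixed cells have a part in the difference between granular and differentiated cells was not tested.

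In the hair follicle the question was how far follicle cells keep these genes. All 9 were lower in the HF class than in resting basal IFE cells (edgeR, adjusted p at most 0.00129), where 15.2% of all genes were called lower, and the median log2 fold change was -0.98 against -0.03 over all genes. Col17a1 differed most, with 137 and 111 CPM in HF cells (-1.87 ± 0.16, adjusted p = 9.17e-08). Itgb4 was at 70.0 and 70.4 CPM (-1.27 ± 0.11), Col7a1 at 59.6 and 56.6 CPM (-1.20 ± 0.15), Dst at 374 and 306 CPM (-0.99 ± 0.14) and Itga6 at 137 and 118 CPM (-0.98 ± 0.14). Of the laminin chains, Lama3 was at 78.9 and 67.6 CPM (-0.92 ± 0.13) and Lamb3 at 130 and 107 CPM (-0.68 ± 0.14). Differences between the genes' fold changes were not tested. Plec was at 153 and 145 CPM (-0.76 ± 0.13) and Cd151 at 44.98 and 38.7 CPM (-0.52 ± 0.08), and Cd151 lost its call when the unnamed Lhx2-high clusters were counted as HF (-0.20, adjusted p = 0.0508). Without cells above 5% mitochondrial UMIs Cd151 (-0.20, adjusted p = 0.549) and Lamb3 (-0.53, adjusted p = 0.0669) were not called. This setting kept 251 of 2131 and 1001 of 3790 resting basal cells, and 422 of 989 and 903 of 1512 HF cells. The compared classes thus differed in mitochondrial share, and the part of this in the fold changes was not tested.

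The HF class was made of a cluster led by Ncam1 and Bdnf and a cluster led by Shh, and these differed in Col17a1. The Ncam1-led cluster, with 1389 cells against 1112 in the Shh-led one, took its name from 1 HF marker among its 10 leading genes, and its mean log2 enrichment of the HF list was -0.06, against 1.28 in the Shh-led cluster. With the Shh-led cluster alone as HF, all 9 genes were again lower than in resting basal cells (edgeR, adjusted p at most 0.00758). The share of all genes called lower in that fit is not given here. Col17a1 differed there by a log2 fold change of -2.76. It was at 204 and 160 CPM in the Ncam1-led and at 62.8 and 69.1 CPM in the Shh-led cluster, with no overlap. Itga6 followed, at 166 and 148 CPM against 104 and 92.6 CPM. Lamb3 ran the other way in each mouse, at 116 and 95.8 CPM in the Ncam1-led and 145 and 116 CPM in the Shh-led cluster, with values that met. These clusters were not tested against each other. Another cluster with high Lhx2 (501 and 486 CPM), led by Sfrp1, Tbx1 and Lgr5 and left unnamed, had Col17a1 at 201 and 167 CPM and Dst at 587 and 486 CPM, the latter overlapping resting basal cells. Dividing HF cells had Col17a1 at 90.6 and 90.8 CPM, Lama3 at 37.4 and 30.8 CPM and Cd151 at 49.5 and 48.7 CPM.

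In the differentiated follicle compartments the CPM of most of the genes fell again. IRS and hair shaft cells held a mean of 14802 and 16318 UMIs per cell, against 9059 and 9330 in HF cells. UMIs per cell of the 9 genes were not compared between these classes. Of the 9, 8 were lower in IRS and hair shaft than in HF cells (21.4% of all genes called lower), with Lama3 at 11.5 and 11.9 CPM (-2.55 ± 0.16, adjusted p = 7.32e-10), Col17a1 at 25.4 and 23.5 CPM (-2.26 ± 0.19) and Dst at 64.6 and 71.0 CPM (-2.23 ± 0.15). Itgb4 fell less, to 40.6 and 41.4 CPM (-0.69 ± 0.12). Cd151 was at 46.0 and 44.9 CPM (0.21 ± 0.09, adjusted p = 0.0669), and was called higher with the mouse as a block (adjusted p = 0.0159) or against the Shh-led cluster alone (adjusted p = 0.00475). Its direction turned when the unnamed Lhx2-high clusters were counted as HF (-0.11, adjusted p = 0.283).

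In the upper follicle, the part that joins the IFE and expresses Krt79, 7 of the 9 genes were lower than in HF cells (21.3% of all genes called lower) and 1, Plec, was higher (21.5% called higher). These calls concern shares of UMIs. Upper follicle cells held a mean of 20097 and 21420 UMIs per cell, against 9059 and 9330 in HF cells. For the 7 genes UMIs per cell were not compared, and a lower share need not mean fewer UMIs per cell. Lamb3 was at 40.9 and 36.6 CPM (-1.62 ± 0.16, adjusted p = 1.79e-07) and Col7a1 at 19.8 and 22.6 CPM (-1.47 ± 0.18). Plec was at 213 and 210 CPM (0.49 ± 0.14, adjusted p = 0.00776), second only to resting basal cells among the classes, and had 4.28 and 4.50 UMIs per cell. Cd151 was at 41.2 and 40.2 CPM and was not called (-0.05 ± 0.09, adjusted p = 0.724), but was called lower when the unnamed Lhx2-high clusters were counted as HF (-0.35, adjusted p = 0.00158). The call for Col17a1 (-1.19 ± 0.17) was lost against the Shh-led cluster alone (-0.23, adjusted p = 0.284).

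**Figure D4:**
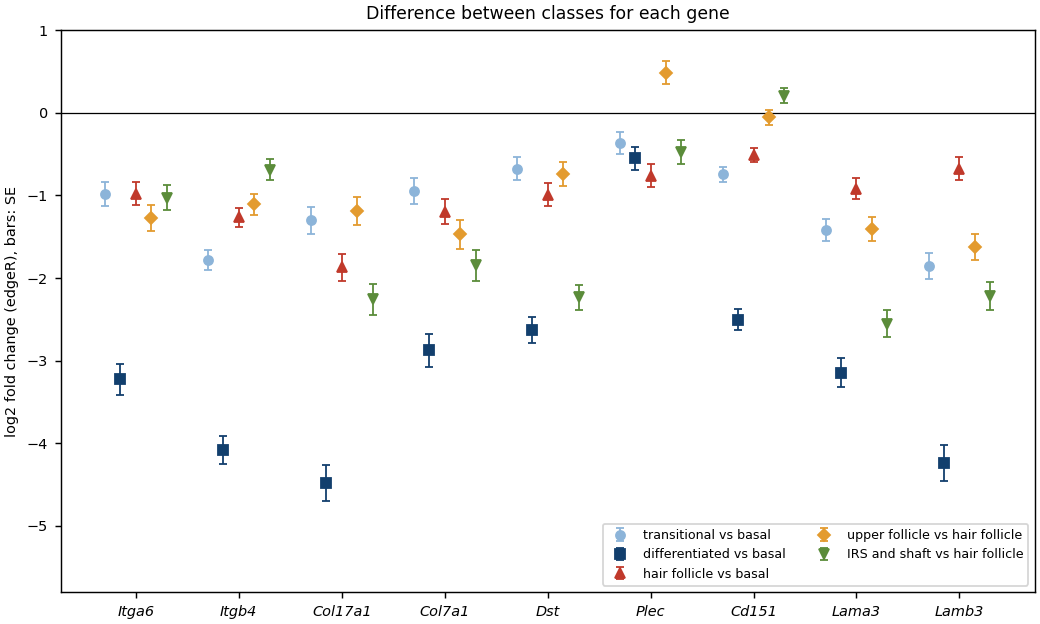
Log2 fold change (y axis) with its SE for each gene in 5 comparisons between classes, from the edgeR fit over sums per mouse and class. The dark squares, differentiated against resting basal cells, lie between -4.48 and -2.50 for 8 genes and at -0.55 for Plec, and Plec in upper follicle cells (0.49) is the called value above 0.

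The 2 mice differed in level more than in direction. In resting basal cells 8 of the 9 genes were higher in KO mouse 1, with a median ratio of 1.23 and the largest for Col17a1 (1.38), and the same held for 8 of 9 in transitional (median ratio 1.23) and HF cells (1.16). In differentiated cells 2 of 9 were higher in KO mouse 1. The share of all genes that were higher in KO mouse 1 was not computed, so these counts cannot be read as a trait of the 9 genes. With 1 library per mouse the difference between the mice was not tested. Within the resting basal clusters, the cluster led by H19 and Igf2 had Itga6 at 330 and 256 CPM and Col17a1 at 586 and 431 CPM, and the cluster enriched for S-phase genes had 203 and 165 CPM and 359 and 270 CPM. Itga6 did not overlap between these clusters, whereas Lama3 (140 and 110 CPM against 147 and 117 CPM) did.

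Outside the keratinocytes some of the genes were also detected. Dst was at 241 and 272 CPM in the Pmel-led melanocyte cluster, close to dividing HF cells (294 and 278 CPM), while Lamb3 there was at the low level given above. Plec was at 161 and 184 CPM in the 52 and 38 T cells, which is 68.6% and 83.1% of its resting basal CPM. The T cells also held Krt14 at 7.39% and 20.5% and Col17a1 at 3.77% and 26.8% of the resting basal CPM. Whether RNA from keratinocytes has a part in the levels outside the keratinocytes was not tested.

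Of 29 related genes of the basement membrane and cell-matrix adhesion, 28 were tested. In differentiated against resting basal cells 20 were lower and 2 higher (26.8% and 31.2% of all genes), with a median log2 fold change of -1.41 against 0.01 over all genes. Lower were the laminin-binding integrin Itga3 (34.1 and 31.2 CPM after TMM scaling in resting basal, 0.694 and 3.29 CPM in differentiated cells, from 2 and 11 UMIs) and the Fraser complex gene Frem2 (-3.69 ± 0.31). Higher were Itgb5 (1.01 ± 0.15) and the dystroglycan gene Dag1 (0.25 ± 0.09). In HF against resting basal cells 8 were higher and 7 lower (13.3% and 15.2% of all genes), with a median of 0.08. Higher were the laminin chain Lamb1 (1.46 ± 0.17), the kindlin Fermt2 (1.56 ± 0.20) and Frem1, which had 46 and 54 UMIs in HF and 1 and 4 UMIs in resting basal cells (ratio 36.8, exact 95% interval 13.6 to 139.8, in KO mouse 2). Lower were Lamb2 (-0.88 ± 0.18), Itga3 (-0.83 ± 0.16) and the laminin receptor Bcam (-0.73 ± 0.13).

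Over the 20 sums of 10 keratinocyte classes in 2 mice, the mean standardized level of the 9 genes was most like that of Ppp1r14a (Pearson r = 0.97), Antxr1 (0.96), Col4a6 (0.96), Prkcdbp (0.95) and Trim35 (0.95) among genes that are not members. Ppp1r14a went from 86.2 and 78.6 CPM in resting basal to 2.78 and 4.48 CPM in differentiated cells after TMM scaling. Of the 9 genes themselves, Plec (0.64) and Cd151 (0.69) were least like the mean and the other 7 lay between 0.94 and 0.97. Each of the 9 is part of that mean, which tends to raise its r, so these values cannot be set against those of non-members. The lowest correlation between members was that of Cd151 and Plec (0.08) and the highest that of Itga6 and Itgb4 (0.96). The points share 2 libraries and a class's RNA content, so these values are a description.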

How the data were processed

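The deposited files hold UMI counts per gene and barcode for 2 libraries, made by the authors from 10x Chromium 3′ reads; the submitters' processing notes name Cell Ranger 3.0.2 and mm10. The counts were not normalised. The members and gene lists were chosen with earlier results of these data known.

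Barcodes were filtered on the number of genes (900 to 7700) and the mitochondrial share (less than 10%), which left 19488 of 26683. The libraries were integrated and clustered with Seurat 5.3.0 at resolution 0.8, with the 9 genes and the related genes left out of the variable genes and of the naming. Clusters were named from marker lists, and names rebuilt in this way may differ from the study's. Scrublet, run through scanpy 1.11.5, marked 175 and 416 cells with the threshold of KO mouse 2, since its own threshold marked 2 cells in KO mouse 1. Marked cells stayed in, and leaving them out was an alternative.

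Counts were summed per mouse and class over 10 keratinocyte classes (20 sums) and tested with edgeR 4.0.16 (TMM scaling, low-count filter, quasi-likelihood F-test, Benjamini-Hochberg threshold of 0.05), after a test on simulated data. DESeq2 1.42.0 was an alternative. All classes come from the same 2 mice, so equal numbers pair the sums; over 45 pairs of classes the correlation of the mouse differences across genes ran from -0.01 to 0.38 (median 0.11). Levels in CPM are a gene's UMIs over all UMIs of the class and mouse, times 1000000; intervals cover counting error only. Genes were named by membership, and related genes by the largest changes in each direction. Similar genes were ranked by Pearson r. Gene positions are those of the GENCODE annotation of mm10.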

Additional observations from a re-analysis of the deposited data

How the results depend on the processing

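Of 846 values of the 9 genes under alternatives, 781 were counted as unchanged, with 99 of 99 for differentiated against resting basal cells. For a refit, unchanged means the same direction and side of the threshold. The counts also include ratios from 1 mouse alone, which have no p-value. Such a ratio counted as unchanged when it lay within the SD between the mice from the fitted value. Ratios from a pair of mice meet this rule almost by construction, so they are no check of the result. Where not stated otherwise, the cause of a change was not tested. Without cells above 5% mitochondrial UMIs, which leaves fewer cells, the genes called went from 4484 to 2349 (transitional), 4526 to 2946 (granular), 2220 to 802 (dividing basal) and 3654 to 1153 (HF), and no member was called in dividing basal cells (0, from 5). Leaving out granular cells with an Lhx2 UMI gave 2963 genes. With the mouse as a replicate block the dividing basal comparison called 3551 genes and 8 members, and 1 member was higher in IRS and hair shaft (Cd151); the block changed no other member call. The members called in dividing basal cells were 1 with library sizes alone, 3 with DESeq2, 8 at resolution 1.2 and 8 with the unnamed dividing cluster added. Against the Shh-led cluster alone 1 member was higher in IRS and hair shaft and 7 instead of 8 were lower, Plec being lost (-0.36, adjusted p = 0.0572). Signs turned for values that had not been called. Granular Plec went to 0.0286 (DESeq2 size factors), 0.0301 (DESeq2), 0.0339 (no low-count filter), 0.0310 (doublets left out) and 0.44 (no TMM). Dividing basal Cd151 went to 0.0150 (DESeq2 size factors), 0.0858 (no TMM), 0.0184 (DESeq2), 0.0228 (doublets left out), 0.17 (under 5% mitochondrial), 0.0308 (unnamed dividing cluster added) and 0.0047 (second clustering). Dividing basal Col7a1 went to 0.12 (under 5% mitochondrial), IRS Cd151 to -0.11 (Lhx2-high clusters added) and upper follicle Cd151 to 0.18 (Shh-led cluster alone). The alternatives that regrouped unnamed clusters, reclustered the IFE or left out Lhx2 cells were chosen after seeing the data.

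Without TMM scaling the median log2 fold change of all genes shifted by -0.40 (differentiated against resting basal), -0.11 (transitional), -0.28 (differentiated against transitional), 0.57 (granular) and 0.15 (HF). The share of called genes that were higher then went from 53.7% to 31.0%, 49.6% to 36.1%, 60.1% to 29.1%, 38.5% to 76.9% and 46.7% to 67.5% in these comparisons, and from 52.2% to 72.8% in dividing basal cells. With DESeq2 size factors the granular share was 49.4%. Leaving out either mouse left 1 sum per class and no test.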
